A study of Mus musculus with 10 samples.

Results

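Casp1, Casp4, Casp8, Casp12, Ripk1, Ripk3, Mlkl and Bcl2l15 were examined in the pancreas of newborn mice. They are 8 of the 24062 genes counted, chosen by symbol as genes of inflammatory and programmed cell death, and all 8 were listed for every mouse. Pancreas RNA of 5 WT and 5 KSR23 mice, all C57BL/6 at postnatal day 5 (P5), gave 1 library per mouse. KSR23 mice carried an R23 allele, an IL-23 cassette behind a floxed STOP in the ROSA26 locus, together with a Cre transgene under the human K14 promoter, which is active in keratinocytes. The cassette was therefore directed to keratinocytes and not by design to the pancreas, and the RNA came from whole tissue. The study measured more IL-23 message in skin than in tongue, esophagus or gut, and also found IL-23 raised in KSR23 serum. The labels name the WT mice only as wild type, so whether they carried either allele alone was not given, and the study describes the controls of the pancreas libraries as littermates. The comparison asked how the pancreas of neonates differs when IL-23 overexpression is directed to keratinocytes.

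Caspases are proteases that cut proteins after aspartate. Caspase-1, activated on inflammasomes, and caspase-11, which Casp4 encodes in the mouse and which binds bacterial lipopolysaccharide, cut gasdermin D, whose fragments open pores in the membrane (pyroptosis), and caspase-1 also matures IL-1β and IL-18. Caspase-8 starts apoptosis from death receptors and holds back necroptosis, the lytic death in which RIPK1 and RIPK3 lead to phosphorylation of MLKL, which then breaks the plasma membrane. In the pancreas these routes are known mainly from acinar cell injury and from the inflammation of pancreatitis. All are controlled largely at the protein level by cleavage, assembly and phosphorylation, none of which RNA counts measure.

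Casp1, Casp4 and Casp12 lie side by side in this order on the plus strand of chromosome 9 (GRCm38, the assembly named mm10), at 5298517 to 5307265, 5308828 to 5336783 and 5345430 to 5373032. The gaps between them are 1562 and 8646 bases. Of the counted genes on either side, Gria4 ends 502282 bases before Casp1 and Pdgfd starts 795551 bases after Casp12. The other members are scattered, with Casp8 on chromosome 1 (58795374 to 58847503, plus strand), Ripk1 on 13 (34002363 to 34037147, plus), Ripk3 on 14 (55784995 to 55788865, minus), Mlkl on 8 (111311797 to 111338177, minus) and Bcl2l15 on 3 (103832601 to 103854618, plus).

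Promoter windows are shown for Casp1, Casp4 and Casp12, which differed between the groups. That of Ripk1 is also shown, the only other member with a match to the motifs searched, and Ripk1 did not pass the test. Each is 300 bases of RefSeq sequence (GRCm38) on the plus strand, from 250 bases before the start site to 50 after it. Both strands were searched for the STAT-binding GAS motif TTCNNNGAA, the interferon-response (ISRE) core GAAANNGAAA and the NF-kB consensus, and capitals mark the matches. The windows are those of Casp1 at chr9:5298267-5298566, Casp4 at chr9:5308599-5308898, Casp12 at chr9:5345226-5345525 and Ripk1 at chr13:34002624-34002923.
Casp1: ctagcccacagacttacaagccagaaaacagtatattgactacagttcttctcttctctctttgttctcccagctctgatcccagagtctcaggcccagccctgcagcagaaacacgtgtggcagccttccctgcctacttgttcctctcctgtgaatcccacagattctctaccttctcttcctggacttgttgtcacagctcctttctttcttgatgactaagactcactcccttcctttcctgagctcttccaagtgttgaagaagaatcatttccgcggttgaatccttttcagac
Casp4: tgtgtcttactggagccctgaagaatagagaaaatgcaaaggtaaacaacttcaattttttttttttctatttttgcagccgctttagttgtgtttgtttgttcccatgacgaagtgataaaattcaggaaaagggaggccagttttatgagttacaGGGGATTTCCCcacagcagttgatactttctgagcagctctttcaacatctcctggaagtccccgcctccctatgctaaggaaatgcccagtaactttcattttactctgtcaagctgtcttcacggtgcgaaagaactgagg
Casp12: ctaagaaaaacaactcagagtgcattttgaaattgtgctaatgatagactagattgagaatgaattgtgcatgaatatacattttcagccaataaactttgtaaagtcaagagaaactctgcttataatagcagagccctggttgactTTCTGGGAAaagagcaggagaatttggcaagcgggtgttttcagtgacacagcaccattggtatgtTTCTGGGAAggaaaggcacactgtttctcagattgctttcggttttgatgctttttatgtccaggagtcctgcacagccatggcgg
Ripk1: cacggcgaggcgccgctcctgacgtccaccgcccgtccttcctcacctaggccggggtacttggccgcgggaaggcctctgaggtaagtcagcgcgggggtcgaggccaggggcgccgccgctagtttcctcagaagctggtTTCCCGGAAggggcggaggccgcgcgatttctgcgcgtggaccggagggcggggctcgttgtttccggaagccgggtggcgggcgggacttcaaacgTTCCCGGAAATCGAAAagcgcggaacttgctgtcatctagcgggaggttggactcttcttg
The Casp1 window held none of the 3 motifs. The same was true of the windows of Casp8, Ripk3, Mlkl and Bcl2l15, which were not called or not tested and are not shown. Casp4 had a pair of overlapping NF-kB matches that begin 93 and 92 bases before the start site, a motif found in 4.51% of 32851 mouse promoter windows. In the other of the 2 Casp4 windows (not shown) the same matches begin 104 and 103 bases before its start site. Casp12 had 2 copies of GAS, at 102 and 36 bases before the start, and 8.3% of all windows held GAS at least once and 0.457% at least 2 times. The second of the 2 Ripk1 windows had GAS at 108 and 11 bases before the start and an ISRE core overlapping the latter (3.44% of all windows). A match is a description of the sequence, and the 3 caspase windows shared none of these motifs.

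The libraries held 26830235 to 33189132 reads counted on genes in WT mice and 16715976 to 57784136 in KSR23 mice, so that 3 counts, taken as the floor, came to between 0.0519 and 0.179 CPM, the reads of a gene scaled to the size of the library. Floors of this kind cover counting error alone, since reads copied by PCR could not be told apart. Alignments that were not unique, which went to no gene, made up 49.6% to 53.7% of alignments in WT and 38.5% to 42.5% in KSR23 mice, so this share moved with the group, and its part in the results was not tested. Levels are given as CPM scaled with edgeR's TMM factors, as mean ± SD over 5 mice. Acinar markers, which define the tissue, were detected in all 10 libraries, with a summed level of 200600 to 223644 CPM in WT and 149905 to 184712 CPM in KSR23 mice. Of the 8 markers 6 were lower in KSR23 mice, 1 (Prss2) was higher and 1 was not called.

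The 3 inflammatory caspase genes were higher in KSR23 pancreas, Casp4 by 3.15-fold, Casp1 by 1.93-fold and Casp12 by 1.81-fold, while Casp8 and the necroptosis genes Ripk1, Ripk3 and Mlkl did not pass the test. Of the 8 members, 7 had at least 5 counts in every library and were tested, 3 were higher (adjusted p under 0.05 in edgeR's quasi-likelihood F test with Benjamini-Hochberg adjustment over 13882 genes), 0 were lower and 4 were not called. Among all tested genes 31% were called, 16.2% higher and 14.8% lower. The median log2 fold change (FC) of the 7 tested members was 0.24, beside -0.01 over all tested genes. With library size alone in place of TMM scaling, the median log2 FC of all genes was 0.09 and 72.5% rather than 52.3% of the calls were higher. Under that scaling the 3 caspase genes stayed higher, and Casp8 was added to them (adjusted p 0.0426).

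**Figure D1:**
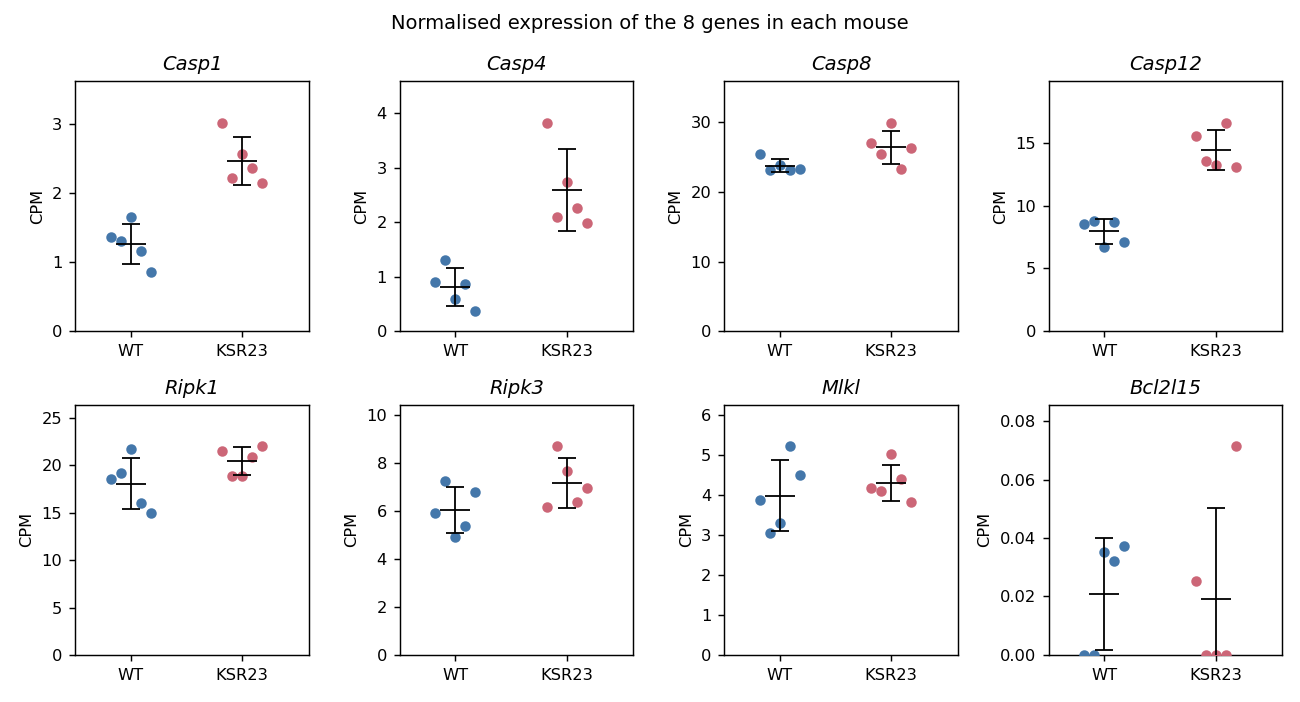
Normalised expression in CPM (vertical axes, linear, from 0) of each of the 8 genes in 5 WT mice (blue) and 5 KSR23 mice (red), with 1 point per mouse and black bars for the mean ± SD, cut at 0 for Bcl2l15. For Casp1, Casp4 and Casp12 every red point lies above every blue point, and for the other 5 genes the groups overlap.

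Casp4 had the largest fold change of the members. Its counts were 26, 38, 17, 27 and 10 in WT replicates 1 to 5, or 0.911, 1.30, 0.597, 0.870 and 0.372 CPM. In KSR23 mice the counts were 152, 71, 49, 91 and 111, or 3.82, 2.102, 2.74, 2.26 and 1.98 CPM. The lowest KSR23 mouse was thus above the highest WT mouse, and replicate 1 was the highest of the KSR23 group. The mean rose from 0.811 ± 0.352 to 2.58 ± 0.751 CPM (log2 FC 1.66, SE 0.291, 95% interval 1.04 to 2.27, adjusted p 0.000309).

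Casp1, the gene of the interleukin-1-converting enzyme, was at 1.37, 1.30, 1.65, 1.16 and 0.856 CPM in WT replicates 1 to 5 (39, 38, 47, 36 and 23 counts). It was at 3.02, 2.22, 2.57, 2.36 and 2.14 CPM in KSR23 replicates 1 to 5 (120, 75, 46, 95 and 120 counts). Here too the groups did not overlap, and KSR23 replicate 3, with the smallest library, gave few counts but not a low CPM. The log2 FC was 0.95 (SE 0.213, 95% interval 0.50 to 1.40, adjusted p 0.00250), with means of 1.27 ± 0.290 CPM in WT and 2.46 ± 0.350 CPM in KSR23 mice.

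Casp12 was the most abundant of the 3 clustered genes. It encodes a caspase of the inflammatory subfamily that is associated with the endoplasmic reticulum in mice. WT replicates 1 to 5 had 8.51, 8.75, 6.70, 8.70 and 7.11 CPM. KSR23 replicates 1 to 5 had 15.6, 13.6, 13.2, 16.6 and 13.1 CPM. The spread within each group was small beside the gap between them, with 7.96 ± 0.973 CPM in WT and 14.4 ± 1.59 CPM in KSR23 mice (log2 FC 0.86, SE 0.112, 95% interval 0.62 to 1.09, adjusted p 1.24e-05). Separation of this kind, every KSR23 mouse above every WT mouse, was seen for 10.7% of the tested genes. The genes on either side of the cluster were not called, with a log2 FC of -0.70 for Gria4 (adjusted p 0.0685) and 0.14 for Pdgfd (adjusted p 0.318). Both were named after their values were seen. For Gria4, at a mean of 1.34 CPM in WT, the 95% interval was -1.30 to -0.11. In 4 KSR23 mice Gria4 was below every WT mouse.

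Casp8 was the most abundant member and changed little. WT mice had 25.4, 23.2, 23.8, 23.1 and 23.3 CPM. KSR23 mice had 27.0, 25.5, 30.0, 23.3 and 26.3 CPM. Of the KSR23 mice, 4 were above every WT mouse and replicate 4 was not. The means were 23.8 ± 0.963 and 26.4 ± 2.41 CPM, and the log2 FC of 0.15 (SE 0.0782, adjusted p 0.159) had a 95% interval of -0.02 to 0.31, an upper bound of 1.24-fold.

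The necroptosis kinase genes overlapped between the groups. Ripk1, whose product joins the TNF receptor complex and can start either survival or death signals, was at 18.6, 19.2, 21.8, 16.0 and 14.9 CPM in WT and at 21.5, 18.8, 18.9, 20.9 and 22.0 CPM in KSR23 mice. Its log2 FC was 0.18 (SE 0.100, 95% interval -0.03 to 0.39, adjusted p 0.193). Ripk3, the kinase that phosphorylates MLKL, was at 5.92, 7.24, 4.91, 5.38 and 6.78 CPM in WT and at 6.14, 8.67, 7.66, 6.34 and 6.94 CPM in KSR23 mice. Only KSR23 replicate 5 for Ripk1, and replicates 2 and 3 for Ripk3, were above every WT mouse. The log2 FC of Ripk3 was 0.24 (SE 0.139, 95% interval -0.05 to 0.53, adjusted p 0.206).

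Mlkl, the executioner of necroptosis, was at 3.89, 3.05, 3.30, 5.22 and 4.50 CPM in WT and at 4.17, 4.12, 5.03, 4.40 and 3.84 CPM in KSR23 mice. All 5 KSR23 values fell inside the WT range. The log2 FC was 0.10 (SE 0.163, adjusted p 0.679), and its 95% interval of -0.24 to 0.44 covers changes from 0.846-fold to 1.36-fold. Bcl2l15, which encodes a protein of the BCL-2 family, was at the edge of detection, with 0, 0, 1, 1 and 1 counts in WT and 1, 0, 0, 0 and 4 counts in KSR23 mice. It did not reach the count minimum and was not tested, both groups lay at or near the floor of 3 counts, and no fold is given.

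**Figure D2:**
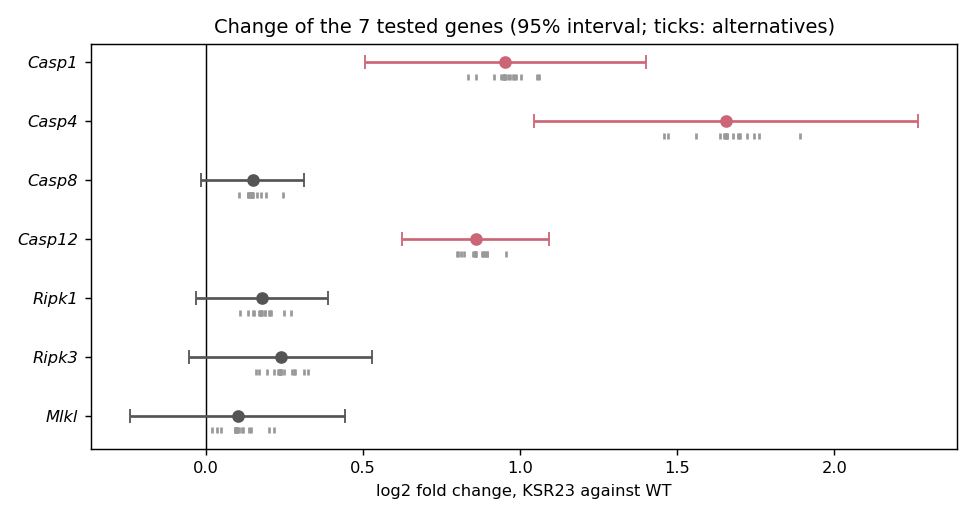
Log2 fold change of KSR23 against WT (horizontal axis) for the 7 tested genes, with 95% intervals, in red where the adjusted p was under 0.05 and in grey otherwise, and with small ticks for the 17 alternative fits. The intervals of Casp1, Casp4 and Casp12 begin at 0.50, 1.04 and 0.62, and those of Casp8, Ripk1, Ripk3 and Mlkl include 0.

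Per kilobase of the longest transcript, levels can be compared between genes, and in WT pancreas their order was led by Casp8 with 9.20 CPM per kb. Ripk3 (3.08), Casp12 (3.003), Ripk1 (2.80) and Mlkl (1.99 CPM per kb) followed, each overlapping the next over the 5 mice. Casp1 (0.846) and Casp4 (0.565 CPM per kb) overlapped each other and lay below all of these. In KSR23 pancreas Casp12, at 5.44 CPM per kb, stood apart as the second gene after Casp8 (10.2), above the overlapping Ripk3 (3.64) and Ripk1 (3.15 CPM per kb). Mlkl (2.15), Casp4 (1.80) and Casp1 (1.65 CPM per kb) came next and each overlapped its neighbour in the order, so that the gap between Mlkl and the 2 lower caspases seen in WT was not present in KSR23 mice. Bcl2l15 was last in both groups, at 0.0110 and 0.0101 CPM per kb.

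The ratio of 2 genes in the same library needs no scaling between libraries, and it tests whether both changed by the same amount. The log2 ratio of Casp4 to Casp1 counts was -0.58, 0.00, -1.44, -0.41 and -1.16 in WT and 0.34, -0.08, 0.09, -0.06 and -0.11 in KSR23 mice. It was higher by 0.75 in KSR23 mice on average, with WT replicate 2 inside the KSR23 range (two-sided exact permutation test over the 252 ways to divide 10 mice into 5 and 5, p = 0.0317, adjusted over 5 ratios 0.0794). The log2 ratio of Casp12 to Casp4 fell from 3.37 ± 0.529 to 2.51 ± 0.354 (exact permutation p = 0.0159, adjusted 0.0794), a difference of -0.86. Neither passed after adjustment, so an unequal change of the 3 clustered genes was not established. Without WT replicate 2 both did pass, with differences of 0.93 and -1.02 (adjusted exact permutation p = 0.0198 for each).

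For the necroptosis pairs the mean ratios stayed close. The Ripk3 to Ripk1 log2 ratio differed by 0.06 (exact permutation p = 0.778, adjusted 0.937) and that of Mlkl to Casp8 by -0.02 (exact permutation p = 0.937, adjusted 0.937). The ratio of Casp8 to Cflar, the gene of its catalytically inactive partner cFLIP, was 1.31 ± 0.121 in WT and 1.50 ± 0.191 in KSR23 mice on the log2 scale (difference 0.19, exact permutation p = 0.0952, adjusted 0.159).

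**Figure D3:**
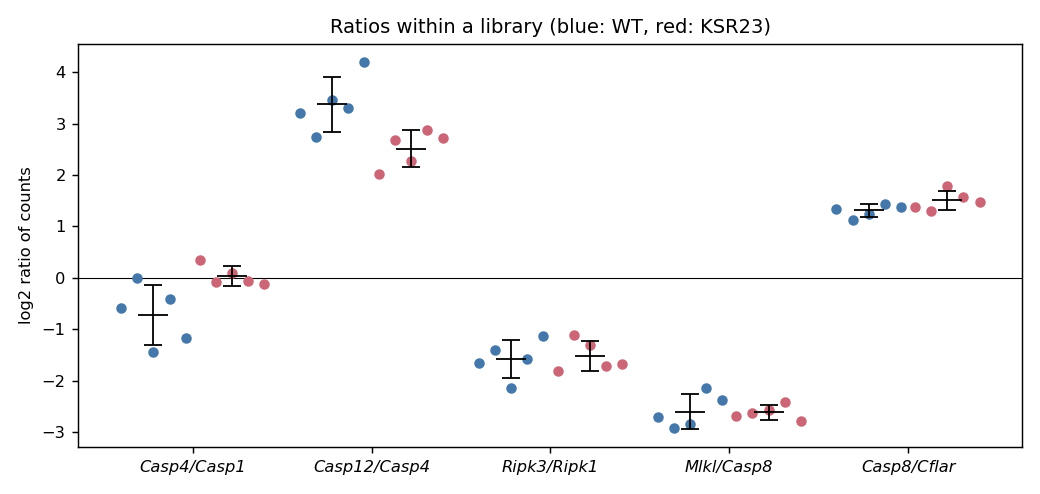
Log2 ratio of the counts of 2 genes in each library (vertical axis) for 5 pairs, with 1 point per mouse, WT in blue and KSR23 in red, and bars for the mean ± SD. Casp4 to Casp1 averages -0.72 in WT and 0.04 in KSR23 mice, and in each of the 5 pairs the ranges of the groups overlap.

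In bulk tissue, fewer cells of a type and less RNA per cell cannot be told apart, and the same holds for more of either. Inflammatory caspases are expressed in myeloid cells, and myeloid markers moved with the group. Of 10 macrophage markers 8 were higher in KSR23 mice and 1, C1qa, was lower, and none was at 0. Their summed level was 421 to 518 CPM in WT mice and 452 to 740 CPM in KSR23 mice. KSR23 replicate 5 stood at 452 CPM, inside the WT range. Its Casp1 (2.14 CPM), Casp4 (1.98 CPM) and Casp12 (13.1 CPM) were the lowest of the KSR23 mice, and each was above every WT mouse, whose highest values were 1.65, 1.30 and 8.75 CPM. Of 9 neutrophil markers (Ly6g had no entry) 7 were higher, with sums of 14.0 to 45.0 CPM in WT and 48.0 to 441 CPM in KSR23 mice and none at 0. The sum of 441 CPM came from KSR23 replicate 3, and the other KSR23 mice, at 48.0 to 105 CPM, were also above every WT mouse. Replicate 5, with the low macrophage sum, was the mouse at 105 CPM. Without replicate 3 the log2 FC was 0.94 for Casp1, 1.64 for Casp4 and 0.89 for Casp12 (adjusted p 0.00452, 0.000448 and 1.23e-05). Neither mouse thus gives a comparison without a difference in myeloid markers. Markers of the epithelial and endocrine cells also moved with the group. Of 6 duct markers 5 were higher (median log2 FC 0.68), with sums of 1109 to 1211 CPM in WT and 1794 to 1962 CPM in KSR23 mice, and of 6 islet markers 4 were lower and 1 was higher, with sums of 7330 to 10497 CPM in WT and 4478 to 5574 CPM in KSR23 mice. Neither sum overlapped between the groups and none of these markers was at 0. The sums of 4 endothelial markers overlapped, at 141 to 157 CPM in WT and 136 to 150 CPM in KSR23 mice. Of these markers 1 was higher and 2 were lower. The sums of 5 stromal markers overlapped too, at 6870 to 8603 and 6327 to 8308 CPM, with 1 higher and 0 lower. Of 4 tested lymphoid markers 0 were higher and 1 was lower. Sums of all 8 lymphoid markers also overlapped (5.67 to 8.06 and 3.34 to 5.89 CPM). The part of RNA from any of these cell types or from acinar cells in the caspase differences was not tested.

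**Figure D4:**
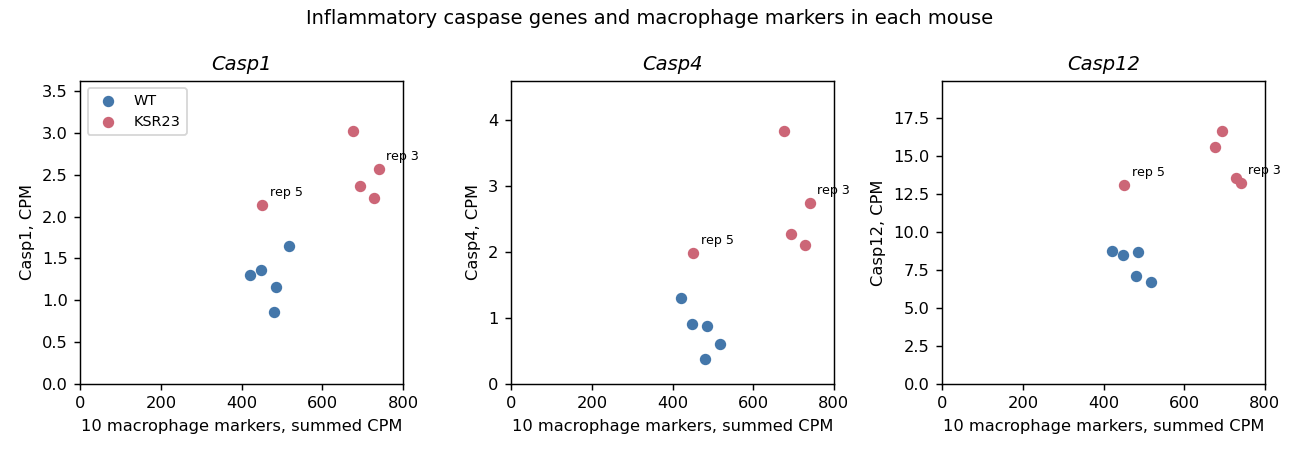
CPM of Casp1, Casp4 and Casp12 (vertical axes, from 0) against the summed CPM of 10 macrophage markers (horizontal axes, from 0) in each mouse, WT in blue and KSR23 in red. KSR23 replicate 5 has a macrophage sum of 452 CPM, within the WT range of 421 to 518, and on each vertical axis it is the lowest KSR23 mouse and lies above all WT mice. The neutrophil marker sum of this mouse (not shown) was 105 CPM, above the WT maximum of 45.0 CPM.

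For 6 of the tested members, the gene with the most similar pattern over the 10 libraries was taken as the one with the smallest root mean square (RMS) difference in log2 CPM, each gene centred on its own mean. Trim14 was nearest to Casp1 (RMS 0.136) and Tmem176b to Casp12 (0.114). For the members that were not called these were Pgd for Casp8 (0.0494), Gtpbp4 for Ripk1 (0.0749), Rnf121 for Ripk3 (0.0947) and 1700086L19Rik for Mlkl (0.0934). Among the members themselves, Casp1 and Casp12 were nearest to each other (0.272), Casp4 was nearest to Casp1 (0.513), and Casp8 was nearest to Ripk1, Ripk3 and Mlkl (0.178, 0.211 and 0.225). This measure is a description over mice that share 2 groups and carries no test.

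Other genes of the same routes were listed in 7 groups by function. Of 88 genes, 63 were tested, 17 were higher (27.0%, beside 16.2% of all tested genes), 7 were lower (11.1%, beside 14.8%) and their median log2 FC was 0.09. The lists and the members were not compared by a set test. The lists were chosen with earlier results of these data known, and the effect of this choice on the shares was not tested. With library size alone, 3 rather than 7 were lower.

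Upstream of caspase-1, a pair of sensor genes rose and the adaptor gene fell. Of 14 inflammasome genes 5 were tested, 2 were higher, 1 was lower and the median log2 FC was 0.73. That median is the value of Naip6, which was not called (adjusted p 0.0554). The tested genes outside the Naip family, Pycard and Nek7, were at -0.79 and -0.19. Naip6 and Nek7, outside the rule for named genes, were named after their values were seen. Without WT replicate 1 the count lower was 2, and with no filter on low counts the count higher was 4. Naip5 and Naip2, sensors of bacterial flagellin and secretion-system proteins, rose from 0.269 ± 0.103 to 1.29 ± 0.470 CPM (log2 FC 2.22, adjusted p 0.000175) and from 1.19 ± 0.447 to 2.56 ± 0.559 CPM (log2 FC 1.10, adjusted p 0.00523). Naip genes are close copies, with 76.2% of 75-base windows unique for Naip5 and 89.1% for Naip2. Exact reads from the shared windows went to no gene, and whether other reads went to the wrong copy was not tested. Pycard, which encodes the adaptor ASC that links sensors to caspase-1, fell by 0.79 on the log2 scale, from 19.7 ± 1.79 to 11.5 ± 1.15 CPM (adjusted p 5.76e-06), with every KSR23 mouse below every WT mouse. Nlrp3, Nlrc4 and Aim2, of the same list, were under the count minimum, with mean levels of at most 0.717 CPM in either group. Nlrc4 was at 0.452 ± 0.168 CPM in WT and 0.561 ± 0.375 CPM in KSR23 mice, with overlap.

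Downstream, 2 of 4 tested pyroptosis genes were higher and 0 lower (13 listed, median log2 FC 0.31). Ninj1, needed for the final rupture of the plasma membrane, rose from 39.6 ± 3.07 to 54.6 ± 3.40 CPM (log2 FC 0.46, adjusted p 9.69e-05). Gsdmd, the substrate of caspase-1 and caspase-11, rose from 14.6 ± 1.68 to 18.4 ± 1.91 CPM (log2 FC 0.33, adjusted p 0.0174), and was not called without KSR23 replicate 4 or WT replicate 4 (adjusted p 0.0565 and 0.0560). Il18, whose product caspase-1 matures, had a log2 FC of 0.00 (adjusted p 0.993).

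Among the 25 listed genes that were not tested, 6 had no count in any library and 19 had some. In 2 of these 19, every KSR23 mouse was above every WT mouse, a separation found in 2.86% of the 5345 genes under the count minimum, and both were named after their values were seen, for this separation, so no test is given. Il1b, the cytokine gene whose product caspase-1 cuts, had 15, 8, 6, 1 and 9 counts in WT and 43, 57, 35, 60 and 68 in KSR23 mice, or 0.276 ± 0.180 and 1.49 ± 0.354 CPM. Tnf, the ligand of the TNF receptor, had 9, 3, 0, 0 and 0 counts in WT and 15, 26, 12, 37 and 28 in KSR23 mice, or 0.0836 ± 0.137 and 0.648 ± 0.215 CPM.

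**Figure D5:**
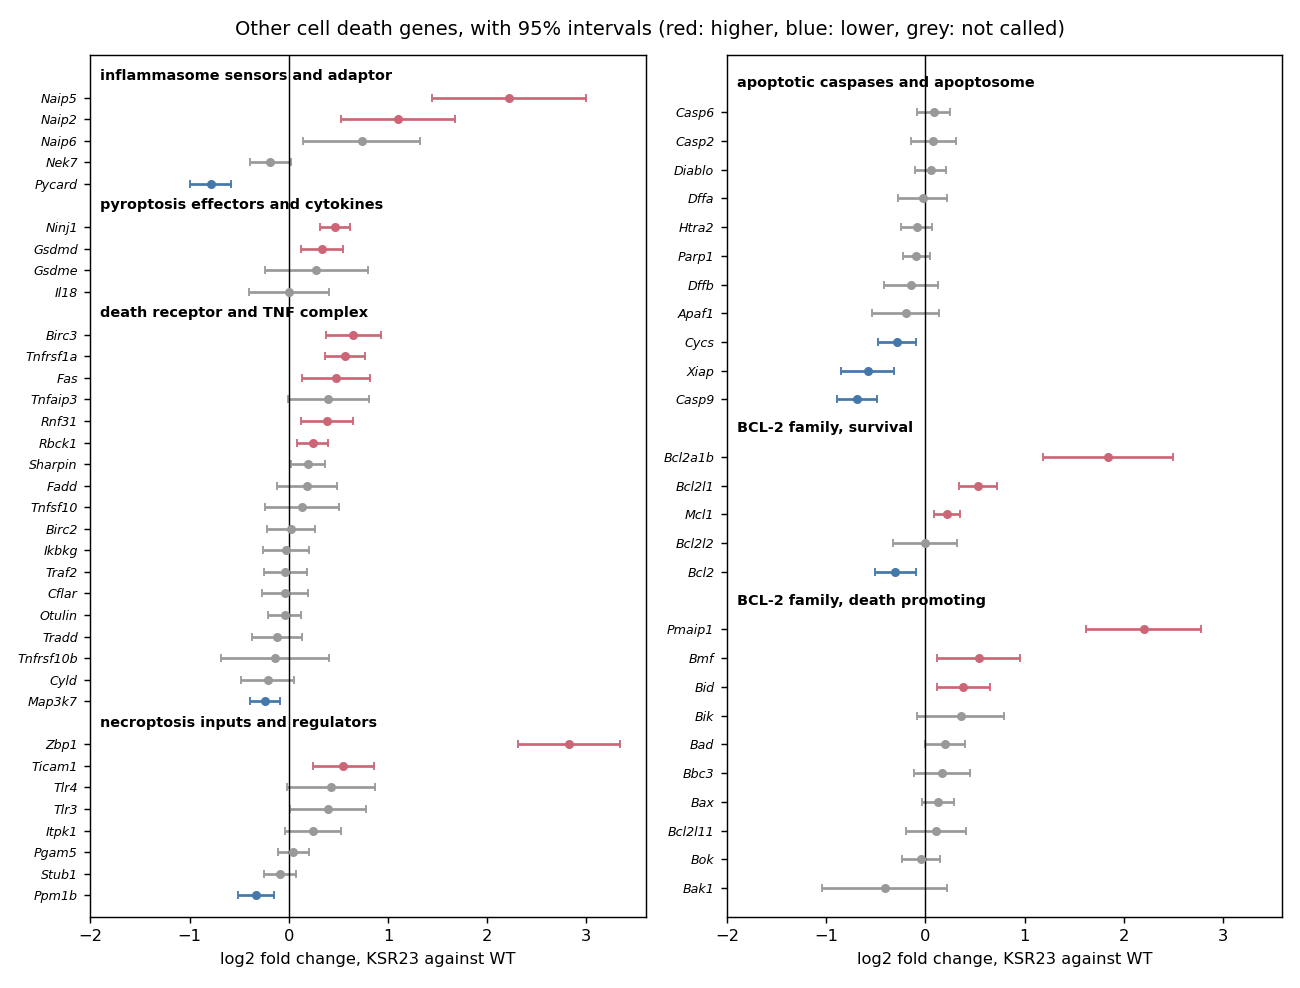
Log2 fold change of KSR23 against WT with 95% intervals (horizontal axes) for tested genes of the 7 lists (not all are shown), red where higher, blue where lower and grey where not called. Zbp1 lies farthest to the right at 2.83 and Pycard farthest to the left among called genes at -0.79, and the apoptotic caspase list holds no red point.

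Of 20 genes of death receptors and the TNF receptor complex 18 were tested, 5 were higher, 1 was lower and the median log2 FC was 0.08. Birc3, a ubiquitin ligase that restrains RIPK1-dependent death, rose from 6.08 ± 0.745 to 9.52 ± 1.62 CPM (log2 FC 0.65, adjusted p 0.00108). Tnfrsf1a, the TNF receptor gene, rose from 29.5 ± 2.46 to 43.7 ± 6.60 CPM (log2 FC 0.57, adjusted p 0.000242). Fas (log2 FC 0.47, adjusted p 0.0346) and Rnf31 (log2 FC 0.38, adjusted p 0.0262), a death receptor and a linear ubiquitin ligase subunit, were also higher. Fas was not called without KSR23 replicate 1 or 4 or WT replicate 2, 4 or 5 (adjusted p up to 0.0913), nor Rnf31 without KSR23 replicate 1 or 5 or WT replicate 2, 3 or 5 (adjusted p up to 0.0798), and the count called higher went down to 2. Rbck1 (log2 FC 0.24, adjusted p 0.0216) and the single lower gene Map3k7 (log2 FC -0.24, adjusted p 0.0153), outside the rule for named genes, were named after their values were seen, and with library size alone 0 genes of this list were lower. Cflar, a brake on caspase-8, had a log2 FC of -0.04 (adjusted p 0.823), which turned positive with library size alone (0.05) and without KSR23 replicate 4 (0.02).

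Of 8 necroptosis inputs and regulators, all tested, 2 were higher and 1 was lower, with a median log2 FC of 0.32. Zbp1, a nucleic acid sensor induced by interferon that binds RIPK3, rose from 0.504 ± 0.124 to 3.62 ± 0.795 CPM (log2 FC 2.83, SE 0.245, adjusted p 7.89e-08). Ticam1, the adaptor TRIF, rose from 4.00 ± 0.308 to 5.87 ± 1.01 CPM (log2 FC 0.55, adjusted p 0.00819). Ppm1b, a phosphatase that acts on RIPK3, was lower (log2 FC -0.33, adjusted p 0.00807), and was not called with library size alone (log2 FC -0.23, adjusted p 0.0733). Of its 75-base windows 15.7% also occur at another locus, and exact reads from these went to no gene. The log2 FC intervals of Zbp1 (2.31 to 3.34) and Ripk3 (-0.05 to 0.53) do not meet.

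Among 13 tested genes of the apoptotic caspases and the apoptosome (14 listed, median log2 FC -0.12), 0 were higher and 3 were lower. Casp9, the initiator caspase of the mitochondrial route, fell from 36.2 ± 2.63 to 22.5 ± 3.26 CPM (log2 FC -0.69, adjusted p 2.70e-05). Xiap, an inhibitor of caspases, was also lower (log2 FC -0.58, adjusted p 0.00198), as was Cycs, the gene of cytochrome c (log2 FC -0.29, adjusted p 0.0211), which was not called with library size alone or without KSR23 replicate 4 or WT replicate 1 or 4 (adjusted p up to 0.0820). Its level rests on part of the transcript, since 26.1% of its 75-base windows also occur at other annotated loci. Exact reads from these windows went to no gene.

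In the BCL-2 family, to which Bcl2l15 belongs, members of both roles were higher. Of 5 tested survival genes (8 listed, median log2 FC 0.22) 3 were higher and 1 was lower, and with no filter on low counts 5 were higher. Bcl2l1, the gene of BCL-XL, rose from 21.5 ± 2.58 to 31.2 ± 3.05 CPM (log2 FC 0.53, adjusted p 0.000287) and Mcl1 had a log2 FC of 0.22 (adjusted p 0.0120). Bcl2a1b had a log2 FC of 1.84 (adjusted p 0.000227), but only 31.6% of its 75-base windows are unique. Exact reads from the 43.5% of windows shared with other loci went to no gene, so its level rests on part of the transcript. Whether other reads went to the wrong paralog was not tested. Bcl2 itself was lower (log2 FC -0.30, adjusted p 0.0289), and was not called with library size alone or without KSR23 replicate 1, 4 or 5 or WT replicate 2 or 4 (adjusted p up to 0.153).

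Of 10 tested death-promoting genes (11 listed, median log2 FC 0.18) 3 were higher and 0 were lower, and with library size alone 5 were higher. Pmaip1, the gene of NOXA, which neutralises MCL-1, rose from 0.598 ± 0.221 to 2.79 ± 0.839 CPM (log2 FC 2.20, SE 0.277, adjusted p 8.13e-06). Every KSR23 mouse was above every WT mouse, as for 10.7% of the tested genes. Bid, whose product caspase-8 cuts to reach the mitochondria, had a log2 FC of 0.38 (adjusted p 0.0278), and Bmf, another BH3-only gene, one of 0.54 (adjusted p 0.0477). Bid was not called without KSR23 replicate 2 or 3 or WT replicate 1, 4 or 5 (adjusted p up to 0.0715). Bmf was not called in 9 of the 17 alternative fits, among them those without KSR23 replicate 1, 2 or 4 or any of WT replicates 1, 3, 4 and 5 (adjusted p up to 0.166), so that the count called higher went down to 1.

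How the reads map bears on these levels. Every 75-base window of the longest transcript was unique for Casp1, Casp4, Casp12, Ripk3 and Mlkl, and 97.7% were unique for Casp8, so the 3 neighbouring caspase genes do not exchange reads of exact match. For Ripk1 93.2% and for Bcl2l15 79.2% of the windows were unique, and the rest fall in annotated loci inside the same gene. Ripk1 overlaps Serpinb6a on the opposite strand at 34002363 to 34002794, and reads there could not be told apart without strand.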

How the data were processed

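Libraries of 10 mice (5 WT and 5 KSR23, pancreas, P5) were grouped by their labels. The authors made cDNA from 100 pg of RNA with an oligo-dT primer (SMART-Seq v4, no molecular identifiers). Single-end reads of 75 bp were aligned by TopHat 2.1.0 (mm10). The deposited values are raw gene counts from htseq-count 0.6.1, which took unique alignments only. The annotation and strand setting are not given in the sources used here, and the kit does not mark strand. Filtering and normalization were later steps by the authors.

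A minimum of 5 counts in each library left 13882 genes. These were scaled by TMM and tested with the quasi-likelihood F test of edgeR 4.0.16 in R 4.3.3, with Benjamini-Hochberg adjustment, whereas the study used the likelihood ratio test. The SE was the size of the log2 FC divided by the square root of F. Likeness used log2 CPM with a prior count of 2, and log2 ratios a pseudocount of 0.5 counts. Any pair of libraries of a group differed far beyond sampling noise (chi-square per degree of freedom of 11.9 or more). The labels do not say whether litters differed, and p-values measure the spread between these mice. Gene positions, lengths and windows came from GENCODE M21 and promoters from RefSeq (GRCm38), where all 8 members matched. On simulated data the test found 60.8% of 97 genes changed by a log2 FC of 0.6 and 87.6% of 97 changed by 1, among 13742 genes. Of the 151 genes called there, 7 had not been changed. Far fewer genes were changed in the simulation than were called in these data, and changes as small as those of the uncalled members were not simulated.

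The members, gene lists and tests were chosen with earlier results of these data known. Named genes were all members, up to 4 called genes of largest log2 FC per list, Cflar, Gsdmd, Pycard and Zbp1, and the nearest gene in pattern to each member, and a few of these values are not reported here. As alternatives the study's own test, DESeq2 1.42.0, RLE factors, unscaled library sizes, no filter, filterByExpr, the replicate number as a block, a ratio pseudocount of 2 and the omission of each mouse were run. Jejunum libraries were not analysed here.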

Additional observations from a re-analysis of the deposited data

Results flagged for a closer look

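In groups of 5 mice, a value was singled out where its gap to the nearest other mouse exceeded 0.71 of the group's range (Dixon's criterion), which chance gives in about 1 in 20 groups. Of 88 such groups 4 met it, where 4.4 would be expected by chance. Birc3 was at 12.3 CPM in KSR23 replicate 1 and at 8.17 to 9.15 CPM in the other KSR23 mice, and Mcl1 was at 136 CPM in the same mouse and at 117 to 123 CPM in the others. The summed level of the macrophage markers was 452 CPM in KSR23 replicate 5, below the 677 to 740 CPM of the other KSR23 mice. The neutrophil marker sum was 441 CPM in KSR23 replicate 3, against 48.0 to 105 CPM in the others. No member of the cell death set was singled out, and the causes were not tested.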

How the results depend on the processing

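Of the members, Casp1, Casp4 and Casp12 were called higher in each of the 17 alternative fits, with log2 FC ranges of 0.84 to 1.06, 1.46 to 1.89 and 0.80 to 0.95 and adjusted p of at most 0.0100, 0.00144 and 8.13e-05. Ripk1, Ripk3 and Mlkl were called in none, with adjusted p from 0.0563, 0.105 and 0.360 upwards, and Casp8 in 1, library size alone (log2 FC 0.24), which made 4 members higher. Of 510 values of 30 named genes, 470 kept direction and side of the threshold. Cflar reversed, to 0.052 with library size alone and 0.021 without KSR23 replicate 4 (-0.085 to 0.021 over the mice left out). With library size alone 3 rather than 7 listed genes were lower. Leaving out each mouse gave 3497 to 4173 calls among all genes (4299 with all mice), 3 members higher and 0 lower each time, 13 to 17 listed genes higher and 5 to 7 lower. Over the same settings the ratio differences ran from 0.57 to 0.93 (Casp4 to Casp1), -1.02 to -0.66 (Casp12 to Casp4), -0.081 to 0.17 (Ripk3 to Ripk1), -0.10 to 0.10 (Mlkl to Casp8) and 0.12 to 0.25 (Casp8 to Cflar). Of these, both Casp4 ratios passed after adjustment without WT replicate 2, and the pairs of necroptosis genes changed sign (Ripk3 to Ripk1 -0.081 and -0.041 without WT replicate 3 and KSR23 replicate 2, Mlkl to Casp8 0.096, 0.041, 0.0028 and 0.023 without WT replicates 4 and 5 and KSR23 replicates 1 and 5).

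With the replicate number as a block, 3749 genes were called, 3 members stayed higher and no call of a member changed. Same-numbered mice did not deviate together (r from -0.11 to 0.07). The highest r of any WT mouse with any KSR23 mouse was only 0.13, so this cannot show whether the numbers stand for a pairing. Casp1 and Casp4 rest on 10 to 152 counts per library and Bcl2l15 on at most 4, which limits their precision.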
